A study of Mus musculus with 57 samples.

Results

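The collagen genes of the mouse were followed through 7 embryonic contexts in wild-type (wt) and *Hoxa5*-/- embryos. The members were all protein-coding genes named as a collagen alpha chain, found by the pattern of the name alone in the deposited annotation, and they numbered 44 of the 56860 genes in the count tables. Each of the 44 had at least 1 count in some library. Collagens are secreted or membrane-bound proteins whose chains wind into a triple helix, and each gene encodes a chain. The genes were grouped by the structure that the protein builds: 11 fibrillar collagens, which form the banded fibrils of connective tissue and cartilage; 9 fibril-associated collagens (FACIT), which coat those fibrils; 6 chains of the type IV network of basement membranes; 6 chains of type VI, which form beaded filaments around cells; 3 short-chain network collagens (types VIII and X); *Col7a1*, the anchoring fibril collagen of skin; 2 multiplexins, which sit in basement membrane zones; 4 transmembrane collagens; and 2 others (*Col26a1* and *Col28a1*).

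RNA was measured by bulk polyA RNA-seq in 57 libraries from embryos kept on the 129/Sv background, the *Hoxa5*-/- embryos carrying the *Hoxa5* null mutation in every cell. Lung at E12.5 and lung, trachea and diaphragm at E15.5 had 4 wt and 4 *Hoxa5*-/- libraries each, sequenced as single-end reads. The somite samples were trunk tissue from the levels C3 to T2, from which other organs and the limbs had been taken off, and they had 4 and 3 libraries from E10.5 embryos and 4 of each genotype from E12.5 embryos. The brown fat depot between the shoulder blades (iBAT), taken at E18.5, had 5 and 5. The 25 somite and iBAT libraries were sequenced as read pairs at another centre. Library totals ran from 18369905 to 72991481 counts, of which 80705 to 1457645 fell in collagen genes. Levels are given in TPM, a relative transcript abundance for which the authors corrected each count for the length of the gene's exons and for library size, and the spread is the SD over libraries. The labels do not say whether libraries of a group came from separate litters, so the p-values measure only the spread between these libraries. In whole tissue, fewer cells of a type and less RNA per cell cannot be told apart.

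Transcripts of *Hoxa5*, a homeobox transcription factor gene, checked the labels. In the lung at E12.5, *Hoxa5* was at 233 to 304 TPM in wt libraries and at 67.2 to 74.9 TPM in *Hoxa5*-/- libraries. At E15.5 the lung levels were 144 to 171 and 30.8 to 47.7 TPM, in the trachea 76.3 to 108.9 and 20.9 to 37.7 TPM, and in the diaphragm 60.1 to 94.7 and 15.3 to 26.6 TPM. In somites they were 164 to 236 and 85.2 to 112 TPM at E10.5 and 92.7 to 112 and 29.2 to 43.6 TPM at E12.5, and in iBAT 44.1 to 51.5 and 9.84 to 16.2 TPM. The genotypes did not overlap in any of the 7 contexts, and *Hoxa5* reads remained in all mutant libraries.

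Some libraries stood apart, and values without them are given below for *Col2a1*, for the genes called between genotypes and for some comparisons between tissues. *Hoxa5*-/- replicate 3 of the diaphragm had a summed level of 11 cartilage marker genes of 201 TPM, against 40.2 to 49.0 TPM in the other 3 mutant libraries. Its *Col2a1* level was 242 TPM, while all other diaphragm libraries had 4.60 to 8.04 TPM. *Hoxa5*-/- replicate 3 of the trachea had 2780 TPM of 7 skeletal muscle markers, against 43.2 to 102 TPM in the other 3 mutant libraries, and 1885 TPM of the cartilage markers. In the diaphragm, wt replicate 3 had 400 TPM of 3 lung epithelial markers, against at most 6.19 TPM in the other wt libraries, and 8554 TPM of 5 hepatocyte markers, led by *Alb*, against 1513 to 1859 TPM. In the *Hoxa5*-/- diaphragm the hepatocyte markers summed to 2048, 346, 10553 and 9065 TPM, high in replicates 3 and 4. They were also raised in *Hoxa5*-/- replicate 3 of the lung at E15.5, at 448 TPM against at most 9.62 TPM in the other mutant libraries. Replicate 4 of that group had the lowest sum of the 4 mutant libraries in 11 of 15 marker lists, among them cartilage (124 against 186 to 196 TPM), smooth muscle (838 against 1077 to 1428 TPM), endothelium (497 against 746 to 836 TPM), epithelium (693 against 1045 to 1550 TPM) and macrophages (61.8 against 96.8 to 116 TPM). It had the fewest counts of the E15.5 lung libraries, 20692978, and collagen genes took 0.468% of its TPM, against 0.686% to 0.753% in the other mutant libraries, and 1.23% of its counts, against 1.39% to 1.53%. The study's read statistics also give it the lowest mapped and assigned shares of reads among the E15.5 lung libraries.

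In the *Hoxa5*-/- lung at E12.5, replicate 1 had 16646 TPM of 4 erythroid markers, against 2075 to 3097 TPM in the other 3 libraries, and 34.0 TPM of 4 macrophage markers, against 70.3 to 78.9 TPM, and replicate 4 had 27.3 TPM of skeletal muscle markers, against 2.44 to 6.03 TPM. In the wt trachea, replicate 3 had 487 TPM of the lung epithelial markers, against 95.9 to 146 TPM. Of the 855 sums of 15 lists in the 57 libraries, 28 lay at least 2-fold above or below all other libraries of the group, where the highest library had 10 TPM or more, and these came from 19 libraries. *Hoxa5*-/- replicate 3 of the somites at E10.5 was not that far off but had the lowest sum of its 3 libraries in 13 of 15 lists, and 0.150% of its TPM in collagen genes, against 0.208% and 0.188%. The part of these markers in the collagen levels was not tested beyond leaving libraries out 1 at a time.

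Before the levels, the sequences just ahead of some of these genes are shown, because several collagen genes lie as close neighbours and because the others were called between genotypes. *Col4a4* and *Col4a3*, which encode chains of a type IV network found in kidney and lung, start back to back on chromosome 1 with 71 bases between them (GRCm39 chr1:82564571-82564641, shown on the forward strand), none of them in an exon. *Col4a1* and *Col4a2* overlap by 22 bases at their starts on chromosome 8, and *Col4a6* and *Col4a5* start 1308 bases apart on the X chromosome. The 250 bases ahead of the start of *Col9a1* (chr1:24216441-24216690, forward strand) and of *Col9a3* (chr2:180239333-180239582, forward strand) also hold no annotated exon base, and neither do those of *Col19a1* (chr1:24626554-24626803, reverse strand) and *Col8a2* (chr4:126180336-126180585, forward strand), the other genes called whose start codon is not at the annotated start. All 5 are written 5′ to 3′, read from the GRCm39 genome at the deposited annotation's coordinates, with matches to 4 short motifs in capitals on either strand: TAAT or ATTA (the core of many homeodomain sites), ACAAT or ATTGT (a core of SOX sites), CCAAT or ATTGG, and GGGCGG or CCGCCC.
Col4a4-Col4a3: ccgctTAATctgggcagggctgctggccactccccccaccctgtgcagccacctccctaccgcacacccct
Col9a1: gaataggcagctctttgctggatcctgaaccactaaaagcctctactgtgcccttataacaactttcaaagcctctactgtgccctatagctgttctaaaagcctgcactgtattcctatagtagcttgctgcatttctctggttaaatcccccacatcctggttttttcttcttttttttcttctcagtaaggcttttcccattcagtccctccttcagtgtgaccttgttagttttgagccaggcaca
Col9a3: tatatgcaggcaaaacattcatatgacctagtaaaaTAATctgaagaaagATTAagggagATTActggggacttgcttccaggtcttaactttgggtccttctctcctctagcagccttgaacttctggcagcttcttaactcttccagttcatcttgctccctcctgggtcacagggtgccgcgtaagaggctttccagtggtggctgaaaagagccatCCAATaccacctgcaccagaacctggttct
Col19a1: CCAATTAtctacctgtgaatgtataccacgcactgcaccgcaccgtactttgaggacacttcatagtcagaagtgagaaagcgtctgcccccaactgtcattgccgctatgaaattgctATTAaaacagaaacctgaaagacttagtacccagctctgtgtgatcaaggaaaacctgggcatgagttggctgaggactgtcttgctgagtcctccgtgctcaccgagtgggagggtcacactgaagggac
Col8a2: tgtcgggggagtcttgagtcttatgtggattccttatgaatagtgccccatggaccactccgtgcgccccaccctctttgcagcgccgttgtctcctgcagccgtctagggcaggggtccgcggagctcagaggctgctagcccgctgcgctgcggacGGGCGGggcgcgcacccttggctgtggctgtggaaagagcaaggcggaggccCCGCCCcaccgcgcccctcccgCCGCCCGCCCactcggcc
The *Col9a1* window held none of the 4 motifs, and the *Col9a3* window held TAAT or ATTA 3 times, 214, 200 and 190 bases before the start, and CCAAT 1 time, 30 bases before it. The *Col19a1* window held TAAT or ATTA 2 times and CCAAT 1 time, overlapping at its first bases, and the *Col8a2* window held GGGCGG or CCGCCC 4 times. Of 21825 protein-coding genes, 51.2% held TAAT or ATTA, 25.5% ACAAT or ATTGT, 36.1% CCAAT or ATTGG and 41.6% GGGCGG or CCGCCC in a window of the same length. The 71 bases held TAAT 1 time, for which no share at that length was computed. A match of so few letters describes the sequence and shows no binding. The windows of *Col25a1*, called in the diaphragm, and of *Col20a1*, called in an interaction test, are not shown. The starts of *Col9a3* and of *Col20a1*, another FACIT gene, lie on the same strand of chromosome 2 with 364345 bases between the genes.

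Collagen transcripts were a small share of all TPM. In wt libraries the summed level was highest in the trachea, at 1.498% ± 0.120 (SD, n = 4), and in the diaphragm, at 1.47% ± 0.154 (SD, n = 4), which did not differ beyond their spread. Somites at E12.5 followed with 1.27% ± 0.111 (SD, n = 4). The lung had 0.731% ± 0.0290 (SD, n = 4) at E15.5 and 0.326% ± 0.0380 (SD, n = 4) at E12.5. The latter lay within the spread of iBAT, at 0.299% ± 0.0394 (SD, n = 5), and somites at E10.5 were lowest with 0.146% ± 0.0253 (SD, n = 4). Levels in somites and iBAT come from another centre and read type than those of the other tissues, and tissue and centre cannot be told apart across that line.

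The genotypes overlapped in this sum in each of the 7 contexts. In the trachea *Hoxa5*-/- libraries had 1.53% ± 0.310 (SD, n = 4). Replicate 3 was at 1.98% there, and the others, at 1.27% to 1.48%, lay below the wt mean of 1.498%. The mutants had 1.38% ± 0.165 (SD, n = 4) in the diaphragm and 1.201% ± 0.0535 (SD, n = 4) in somites at E12.5. The mutant lung had 0.661% ± 0.132 (SD, n = 4) at E15.5, where replicate 4 was at 0.468%, and 0.336% ± 0.0189 (SD, n = 4) at E12.5. Mutant iBAT had 0.280% ± 0.0259 (SD, n = 5) and mutant somites at E10.5 had 0.182% ± 0.0294 (SD, n = 3).

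**Figure D1:**
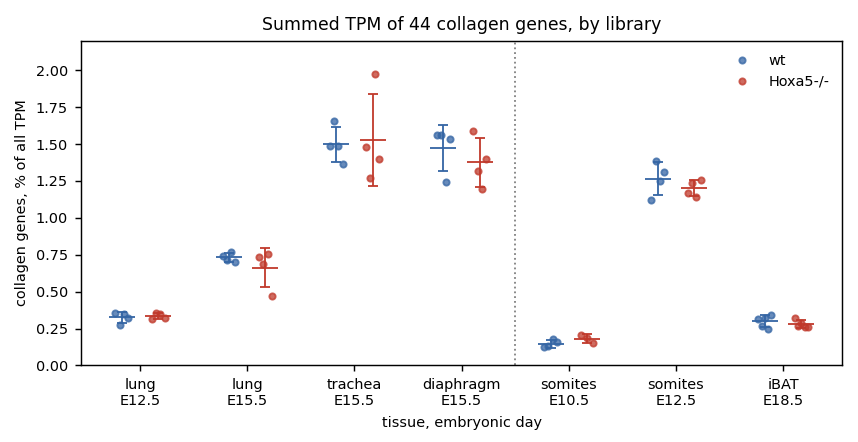
Summed level of the 44 collagen genes as a percent of all TPM (vertical axis) in each library of the 7 contexts (horizontal axis), wt and *Hoxa5*-/- side by side, with the mean ± SD of each group. The wt means run from 0.146% in somites at E10.5 to 1.498% in the trachea, and the genotypes overlap in every context.

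A few genes carried most of this level. *Col1a1* and *Col1a2*, the chains of type I collagen, the main fibril of most connective tissue, and *Col3a1*, of the finer fibrils of distensible organs, led in the trachea with 24.3%, 10.53% and 15.46% of the collagen TPM of wt libraries. In the diaphragm their shares were 28.6%, 10.9% and 16.7%, and in somites at E12.5 they were 20.3%, 9.22% and 14.3%. *Col4a1*, a chain of the type IV network in most basement membranes, ranked second in the lung at E15.5 with 13.7% and held 15.7% in iBAT. Somites at E10.5 had another order, in which *Col3a1* (16.2%) was followed by the multiplexin *Col18a1* (11.4%), the cartilage fibril gene *Col2a1* (10.8%) and *Col4a1* (9.49%).

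By subfamily, the fibrillar genes held from 40.9% of the collagen TPM in the lung at E15.5 to 65.8% in the trachea. The type IV genes held 23.3% in the lung at E15.5 and 25.8% in iBAT, against 5.31% in somites at E12.5. Type VI held 19.1% in the lung at E15.5 and 1.57% in somites at E10.5. The FACIT genes held 14.5% in somites at E12.5 and 12.2% in the trachea, and 2.34% in iBAT.

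At a mean of 1 TPM or more in wt libraries, 41 of the 44 genes were found in the diaphragm, 40 each in the trachea, the lung at E15.5 and somites at E12.5, 38 in the lung at E12.5, 35 in somites at E10.5 and 22 in iBAT. Exactly 20 genes reached 1 TPM in all 7 contexts, and 2 genes in a single context. *Col4a3* was at 8.38, 9.80, 12.3 and 7.06 TPM in the wt lung at E15.5, and its next highest group mean was 0.804 TPM, in the trachea. Of its exon bases, 563 (5.65%) overlap *C430014B12Rik* on the other strand, and the strand setting of the counting is not given in the sources used here. *Col28a1*, a chain related to type VI, was at 1.107, 1.002, 1.010 and 1.23 TPM in somites at E12.5, just over the limit, with a next highest mean of 0.668 TPM. The heat map of mean levels shows some fibrillar, type IV and type VI genes present in every tissue, among them *Col1a1*, *Col3a1*, *Col4a1* and *Col6a1*. Others of these subfamilies were nearly missing somewhere, such as *Col4a6* in iBAT (0.0470 TPM) and *Col6a6* in somites at E10.5 (0.176 TPM). The cartilage genes were nearly missing from iBAT.

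**Figure D2:**
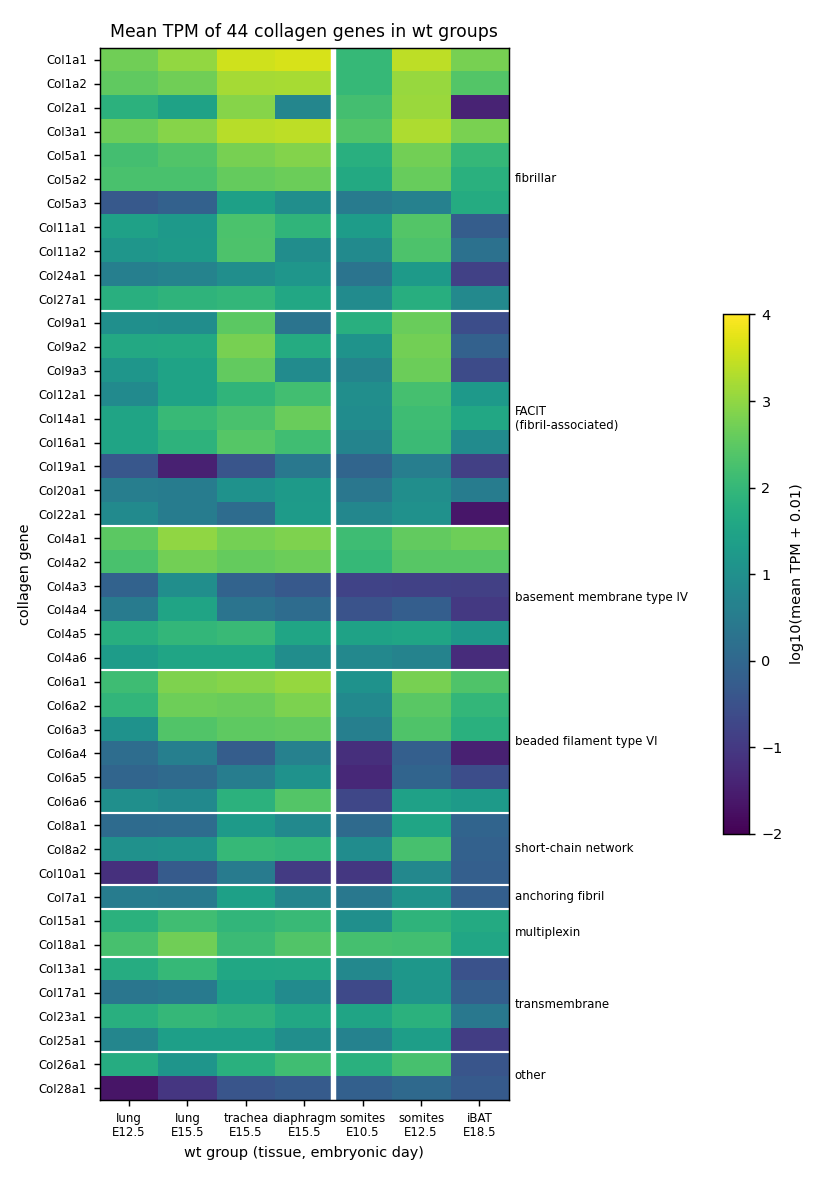
Mean TPM of each of the 44 collagen genes (rows, ordered by subfamily) in the 7 wt groups (columns), as log10 of mean TPM + 0.01; the white line separates the groups sequenced at the 2 centres. *Col1a1* is above 1000 TPM in the trachea, the diaphragm, the lung at E15.5 and somites at E12.5, and *Col2a1* runs from 0.0303 TPM in iBAT to 1241 TPM in somites at E12.5.

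Chains that build the same molecule were compared as ratios of TPM within a library, averaged over each of the 14 groups. Type IV collagen contains *Col4a1* and *Col4a2*, and their ratio kept between 1.31 and 1.87. Type I collagen holds more of the *Col1a1* than of the *Col1a2* chain, and the ratio ran from 0.909 to 2.63. *Col6a1* to *Col6a2* ran from 1.47 to 2.48, whereas *Col6a3* to *Col6a2* ran from 0.127 to 0.810. The counted exon length affects such ratios: for *Col1a2* it was 12426 bases against 5348 in the canonical transcript, and with canonical lengths, an alternative chosen after seeing the data, the type I ratio ran from 0.433 to 1.25. The canonical range was 0.744 to 1.26 for *Col6a1* to *Col6a2* and 0.0710 to 0.455 for *Col6a3* to *Col6a2*. The order of the groups within a ratio does not depend on length.

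The type IX chains were less even. *Col9a1*, *Col9a2* and *Col9a3* encode the chains of type IX collagen, the FACIT that covers type II fibrils in cartilage. Over the 12 groups outside iBAT (47 libraries), *Col9a1* to *Col9a3* ran from 0.264 to 11.7, and *Col9a2* to *Col9a3* from 1.15 to 7.63. The mean of 7.63 was that of the *Hoxa5*-/- diaphragm, whose libraries ran from 1.53 to 11.2, and the wt diaphragm had a mean of 6.37. In wt somites at E10.5 *Col9a1* was at 65.4, 47.7, 58.4 and 71.4 TPM while *Col9a3* was at 4.86, 4.34, 5.54 and 6.13 TPM. In the wt lung at E15.5 the order was the opposite, with *Col9a1* at 8.18 to 9.996 TPM and *Col9a3* at 29.3 to 32.5 TPM. *Col11a1* to *Col11a2*, minor fibrillar chains found with type II collagen, ran from 0.880 to 10.7. The highest mean was again that of the *Hoxa5*-/- diaphragm (1.82 to 15.7 over its libraries), and the wt diaphragm had a mean of 10.1. Of the *Col9a3* exon bases, 234 (6.07%) overlap *Tcfl5* on the other strand, and the strand setting of the counting is not given in the sources used here.

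Tissues and stages were compared first in wt libraries, with the quasi-likelihood test of edgeR and TMM scaling, within each centre's table. A gene was tested when its mean reached 1 TPM in a compared group, and it was called when its Benjamini-Hochberg adjusted p over all genes tested was under 0.05 and its change was at least 1.5-fold. Changes are log2 fold changes with their standard error (SE). The 3 comparisons among E15.5 tissues share wt libraries with each other, and the lung at E15.5 also enters the comparison of lung stages.

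Between E12.5 and E15.5 many collagen genes rose in the lung, among them all basement membrane type IV genes. Of 40 collagen genes tested, 21 were higher and 4 lower at E15.5, against 15.4% and 9.15% of all genes tested, and the median change was 0.66 over the collagen genes and -0.01 over all genes. All 6 type IV genes, both multiplexins, 4 of 6 type VI genes and 3 of 4 transmembrane genes rose. *Col6a3* was at 12.1, 5.58, 16.2 and 11.7 TPM at E12.5 and at 205, 221, 307 and 194 TPM at E15.5, a change of 4.33 (SE 0.29, edgeR adjusted p = 2.41e-06). *Col4a4* was at 2.24 to 4.33 TPM and then at 27.3 to 39.3 TPM, a change of 3.34 (SE 0.21, edgeR adjusted p = 1.90e-06). The stages were fully apart in both genes. Marker lists moved as well: endothelial markers summed to 427 to 551 TPM at E12.5 and 897 to 1094 TPM at E15.5 (5 of 6 rose), and epithelial markers to 491 to 547 and 1137 to 1637 TPM (all 5 tested rose). The part of cell type markers in this and the next 5 comparisons was not tested.

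*Col6a1* went from 138 to 690 TPM (2.29, SE 0.15) and *Col6a2* from 87.3 to 470 TPM (2.40, SE 0.15). The transmembrane gene *Col25a1*, known for its role in the innervation of muscle, went from 5.70 to 24.3 TPM (2.06, SE 0.12). The genes that fell included *Col26a1*, from 52.3 to 13.3 TPM (-2.01, SE 0.17), and 2 cartilage fibril genes: *Col2a1*, from 73.3 to 28.7 TPM (-1.39, SE 0.24), and *Col11a1*, from 27.2 to 16.7 TPM (-0.74, SE 0.15). Of the 25 genes called, 21 were called in the same direction between the *Hoxa5*-/- lungs of the 2 stages, which are separate libraries.

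In somites nearly the whole family rose between E10.5 and E12.5. Of 40 genes tested, 35 were higher at E12.5 and 0 lower, against 24.1% and 18.4% of all genes, with a median change of 3.01 over the collagen genes and -0.04 over all genes. With DESeq2 the count of lower genes was also 0, and edgeR's unadjusted p was under 0.05 for 1 gene with a lower level. All 9 FACIT genes, 10 of 11 fibrillar genes, all 4 type VI and all 4 transmembrane genes tested rose, and 2 of 4 type IV genes tested. *Col6a6*, a late-described chain of type VI, was at 0.137, 0.0960, 0.163 and 0.306 TPM at E10.5 and at 22.3, 27.9, 27.3 and 28.6 TPM at E12.5 (7.19, SE 0.20, edgeR adjusted p = 1.17e-11).

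*Col9a3* rose from 4.34 to 6.13 TPM over the E10.5 libraries to 361 to 575 TPM over those of E12.5 (6.33, SE 0.17), whereas *Col9a1* was already at 47.7 to 71.4 TPM at E10.5. *Col6a1* went from 11.7 to 587 TPM (5.58, SE 0.15) and *Col6a3* from 3.86 to 225 TPM (5.82, SE 0.26). *Col17a1*, a transmembrane collagen of the hemidesmosomes of epidermis, went from 0.205 to 13.5 TPM (5.95, SE 0.22). The short-chain gene *Col10a1*, a marker of hypertrophic cartilage, was uneven among wt libraries of E12.5, at 2.88, 19.2, 0.588 and 2.40 TPM. Markers of cartilage (126 to 186 TPM at E10.5, 1072 to 1509 TPM at E12.5), tendon and skeletal muscle rose with them, in 11 of 11, 4 of 4 and 7 of 7 genes. Of the 35 genes called, 34 were called in the same direction in the *Hoxa5*-/- somites.

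In the trachea at E15.5 more collagen genes were higher than lower against the lung of that stage, the chains of types II and IX among them. Of 42 genes tested, 25 were higher and 8 lower in the trachea, against 20.1% and 10.1% of all genes, with medians of 1.36 and 0.02. The fibrillar genes were higher in 10 of 11 cases and the FACIT genes in 7 of 8, while 3 of 6 type IV genes and both multiplexins were lower. *Col9a1* was at 338, 348, 291 and 277 TPM in the trachea against 9.996, 9.05, 8.18 and 8.43 TPM in the lung (5.10, SE 0.11, edgeR adjusted p = 3.96e-08). *Col2a1* was at 836, 959, 824 and 633 TPM against 33.3, 25.4, 15.1 and 41.1 TPM (4.79, SE 0.31). The 2 tissues were far apart in every library for both genes. Cartilage markers summed to 684 to 876 TPM in the trachea and 176 to 193 TPM in the lung (9 of 11 higher), and endothelial markers to 345 to 388 and 897 to 1094 TPM (6 of 6 lower).

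*Col5a3*, a minor fibrillar chain, was at 15.8, 19.1, 54.0 and 13.6 TPM in the trachea and under 1 TPM in every wt lung library (5.13, SE 0.50), and without trachea replicate 3 the change was 4.48 (SE 0.17). *Col8a1*, a short-chain collagen of vessel walls and the corneal basement membrane, was at 18.6 TPM against 1.33 TPM (3.78, SE 0.20), and *Col9a2* at 597 against 43.7 TPM (3.74, SE 0.14). Lower in the trachea were *Col4a4*, at 2.04 against 32.2 TPM (-3.97, SE 0.46), *Col18a1*, at 121 against 504 TPM (-2.10, SE 0.07), the transmembrane gene *Col13a1*, at 37.7 against 103 TPM (-1.48, SE 0.19), *Col4a1*, at 556 against 1002 TPM (-0.88, SE 0.10), and *Col15a1*, at 88.8 against 145 TPM (-0.74, SE 0.08). Of the 33 genes called, 28 were called in the same direction between the *Hoxa5*-/- tissues.

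The diaphragm, a muscle with its tendon and connective tissue, was higher than the lung in 24 and lower in 13 of 42 genes, against 20.9% and 15.6% of all genes, with medians of 1.13 and -0.01. *Col6a6* was at 271, 259, 176 and 261 TPM in the diaphragm and at 6.35 to 7.74 TPM in the lung (5.39, SE 0.18, edgeR adjusted p = 3.46e-08). *Col26a1* was at 145 against 13.3 TPM (3.75, SE 0.18), *Col8a2* at 86.7 against 11.8 TPM (3.18, SE 0.12), and *Col22a1*, the FACIT of muscle-tendon junctions, at 20.1 against 3.25 TPM (2.94, SE 0.15). *Col6a5* was at 11.6 against 1.15 TPM (3.66, SE 0.31). The type IV genes went the other way in 4 of 6 cases, among them *Col4a4*, at 1.32 against 32.2 TPM (-4.32, SE 0.51), *Col4a6*, at 8.57 against 34.1 TPM (-1.69, SE 0.14), and *Col4a5*, at 33.5 against 93.9 TPM (-1.18, SE 0.10). Endothelial markers were also lower, at 279 to 345 TPM against 897 to 1094 TPM (6 of 6), while all 7 skeletal muscle and all 5 hepatocyte markers were higher.

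*Col2a1* (-2.04, SE 0.30) and *Col9a3* (-1.70, SE 0.09) were also lower in the wt diaphragm than in the wt lung. Between the *Hoxa5*-/- tissues these changes were 0.97 and 0.01, where the diaphragm replicate 3 described above had 242 TPM of *Col2a1* and 91.0 TPM of *Col9a3*. Leaving out that library, which was decided once the data had been seen, gave -2.36 (SE 0.32) for *Col2a1* and -2.55 (SE 0.15) for *Col9a3*. In wt tissues without diaphragm replicate 3, *Col2a1* was at -2.23 (SE 0.30) and *Col9a3* at -1.74 (SE 0.08), and the counts were again 24 higher and 13 lower. Of the 37 genes called, 31 were called in the same direction in the mutants.

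Against the trachea, the diaphragm was higher in 16 and lower in 15 of 42 genes, against 14.1% and 18.4% of all genes, with medians of 0.36 and -0.04. *Col9a1* was at 1.83, 2.02, 2.53 and 1.76 TPM in the diaphragm and at 277 to 348 TPM in the trachea (-6.98, SE 0.14, edgeR adjusted p = 3.52e-08). *Col2a1* (-6.88, SE 0.24), *Col9a3* (-5.30, SE 0.13), *Col11a2* (-4.30, SE 0.16) and *Col9a2* (-3.33, SE 0.09) were lower as well. These 5 genes all encode chains of cartilage fibrils or of their coat, and 9 of 11 cartilage markers were lower as well, at 47.2 to 66.3 TPM against 684 to 876 TPM. Higher were *Col22a1* (4.20, SE 0.23), *Col6a6* (2.09, SE 0.24), *Col6a5* (2.05, SE 0.56), the FACIT gene *Col14a1*, at 427 against 188 TPM (1.48, SE 0.14), and *Col26a1* (1.48, SE 0.13). Without wt diaphragm replicate 3 the counts were 19 higher and 13 lower. Of the 31 genes called, 25 were called in the same direction in the mutants.

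In iBAT at E18.5, a fat depot that makes heat, most of the family was lower than in somites at E12.5. Of 40 genes tested, 4 were higher and 29 lower, against 31% and 35.3% of all genes, with medians of -2.05 and -0.16. Stage and tissue change together in this comparison. *Col2a1* was at 0.0150 to 0.0403 TPM in the 5 wt iBAT libraries and at 1006 to 1472 TPM in somites (-14.05, SE 0.21, edgeR adjusted p = 5.21e-16). *Col9a3* (-9.73, SE 0.23), *Col9a1* (-9.55, SE 0.19), *Col9a2* (-8.32, SE 0.14) and *Col22a1* (-8.27, SE 0.24) were also near 0 in iBAT. *Col5a3* was the exception among fibrillar genes, at 56.0, 42.1, 57.3, 34.7 and 52.6 TPM in iBAT and 3.93 to 5.13 TPM in somites (4.66, SE 0.15, edgeR adjusted p = 3.63e-13).

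The scaling of libraries enters every fitted value of this comparison, and so its counts and medians too. *Col5a3* was higher in TPM and in the fit, while the other 3 genes called higher depend on the scale. *Col4a1* was at 465 TPM in iBAT and 360 TPM in somites (1.57, SE 0.10), and *Col4a2* at 281 and 270 TPM (1.26, SE 0.10). *Col6a6* was at 18.46 TPM in iBAT and 26.5 TPM in somites, yet its change was 0.68 (SE 0.13) after TMM scaling, so that the direction differs between TPM and the fitted value. In iBAT the endothelial markers were higher (535 to 722 against 371 to 415 TPM, 5 of 6) and the cartilage markers lower (17.8 to 21.5 against 1072 to 1509 TPM, 10 of 11). Of the 33 genes called, 30 were called in the same direction in the mutants.

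**Figure D3:**
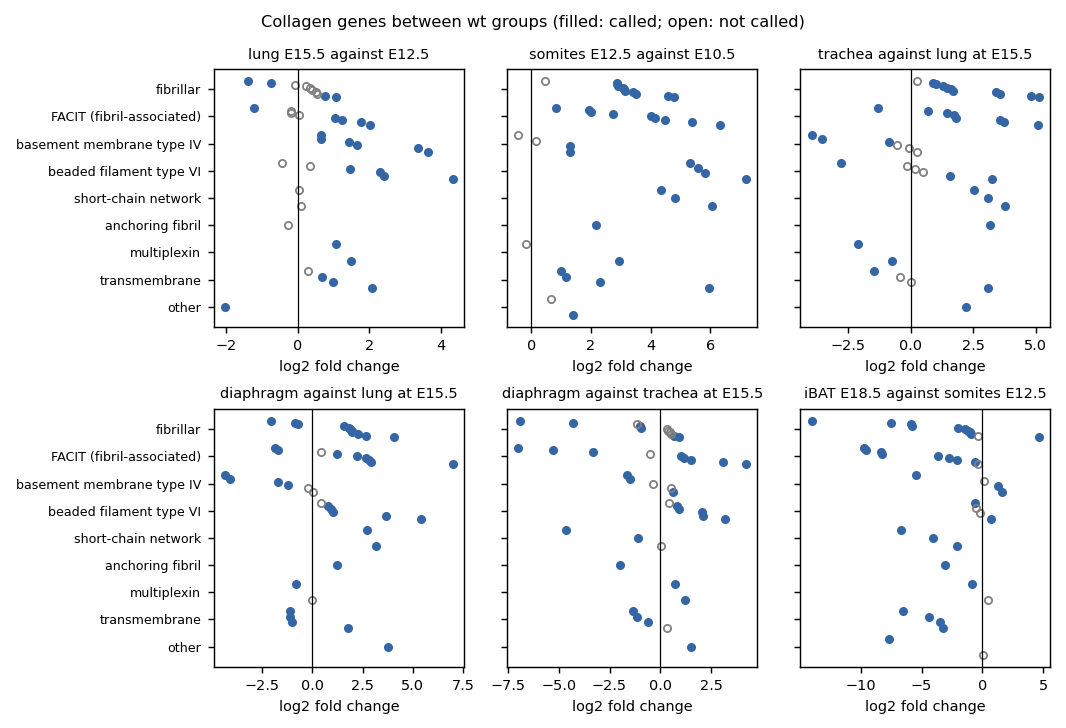
log2 fold change (edgeR, horizontal axis) of each collagen gene tested, by subfamily (vertical axis), in the 6 comparisons between wt tissues or stages. Filled points were called, open points were not. Of 40 genes, 35 rose in somites between E10.5 and E12.5, and 29 of 40 were lower in iBAT than in somites at E12.5.

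Genes that make, process and bind collagen were read alongside. The list held 62 genes: prolyl and lysyl hydroxylases and glycosyltransferases, chaperones and export factors, procollagen proteinases, lysyl oxidases, small leucine-rich proteoglycans, receptors and collagen-degrading enzymes. Between lung stages 19 of 54 genes tested rose and 4 fell, against 15.4% and 9.15% of all genes, with a median of 0.24. In somites 53 of 58 rose and 0 fell, against 24.1% and 18.4%, with a median of 2.12 and 0 genes with a lower level at an unadjusted edgeR p under 0.05. The trachea was higher than the lung in 29 and lower in 3 of 56, against 20.1% and 10.1%, and the diaphragm was higher than the lung in 28 and lower in 7 of 56, against 20.9% and 15.6%. Against the trachea the diaphragm was higher in 8 and lower in 9 of 57, close to the 14.1% and 18.4% of all genes. In iBAT 7 of 59 were higher and 44 lower than in somites, against 31% and 35.3%.

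Small leucine-rich proteoglycans, which bind fibrils and set their width, were among the genes that changed. *Aspn* changed by 6.74 (SE 0.37) in the lung and by 8.52 (SE 0.19) in somites, and *Ogn* by 7.65 (SE 0.16) in somites. *Kera* was higher in the trachea (6.13, SE 0.72) and in the diaphragm (10.82, SE 0.51) than in the lung. *Fmod* was lower in the trachea than in the lung (-3.13, SE 0.26) and lower in iBAT than in somites (-6.01, SE 0.18). It was higher in the diaphragm than in the trachea (1.96, SE 0.25). In iBAT *Kera* was lower (-5.68, SE 0.48) and *Prelp* higher (2.54, SE 0.14) than in somites, while *Prelp* was lower in the diaphragm than in the lung (-2.22, SE 0.18). These proteoglycans are examples, and no count over their list is given. Among the others, *Adamts2*, which removes the amino-terminal propeptide of procollagen, rose in the lung (2.71, SE 0.21), and *Itga1*, a collagen-binding integrin chain, was higher in iBAT than in somites (3.38, SE 0.08). *P4ha2*, a prolyl hydroxylase, fell in the lung (-1.19, SE 0.33).

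The question of the series was what loss of *Hoxa5* does in each tissue, and for most collagen genes the genotypes were not told apart by these tests. In the lung at E12.5, 2 of 38 genes tested were called, both higher in *Hoxa5*-/-, against 0.0798% of all genes. At E15.5, 1 of 40 was called in the lung, also higher, against 0.124%. In the diaphragm 2 of 41 were called, both higher, against 0.594%. No collagen gene was called in the trachea (0 of 40, 0.0156% of all genes), in somites at E10.5 (0 of 36, 0.0215%) or E12.5 (0 of 40, 0.00529%), or in iBAT (0 of 22, 0.00657%). In those 4 contexts DESeq2 called 0 as well, and edgeR's unadjusted p was under 0.05 for 6, 7, 2 and 0 genes. In the contexts with calls it was under 0.05 for 12 genes in the lung at E12.5, of which 9 were higher and 3 lower, for 5 in the lung at E15.5 (2 higher, 3 lower), and for 16 in the diaphragm, where 6 were higher and 10 lower. For these and all other counts at an unadjusted p, the share of all genes under the limit is not given. Whether the counts exceed that share cannot be read from them.

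The median change over the collagen genes was 0.06 in the lung at E12.5, -0.01 in the lung at E15.5, -0.10 in the diaphragm, -0.04 in the trachea, 0.21 in somites at E10.5, -0.06 in somites at E12.5 and -0.09 in iBAT. The median over all genes was -0.01 in the lung at E15.5 and in somites at E10.5, and 0.00 to 2 decimals in the other 5 contexts. A positive change was found for 22 of 38 collagen genes in the lung at E12.5, against 50.8% of all genes, for 19 of 40 in the lung at E15.5 (47.9%), 14 of 41 in the diaphragm (51.2%), 17 of 40 in the trachea (50.6%), 31 of 36 in somites at E10.5 (49.3%), 9 of 40 in somites at E12.5 (48.9%) and 6 of 22 in iBAT (49.5%). None of the 62 genes of the collagen pathway list was called between genotypes in any context by edgeR, whose unadjusted p was under 0.05 for 8 of them in the lung at E12.5, 2 in the lung at E15.5, 7 in the diaphragm, 2 in the trachea, 8 in the earlier and 2 in the later somites, and 1 in iBAT. DESeq2 was not read for this list, and the share of all genes under that unadjusted limit is not given.

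**Figure D4:**
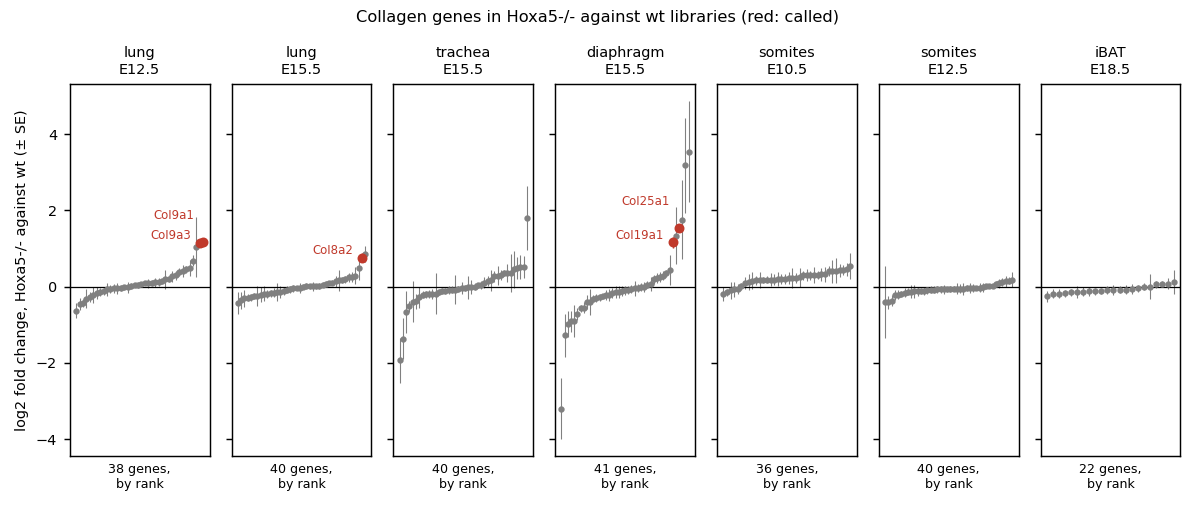
log2 fold change ± SE of *Hoxa5*-/- against wt (vertical axis) for each collagen gene tested, ranked within each of the 7 contexts (panels); red points were called. Called are *Col9a1* and *Col9a3* in the lung at E12.5, *Col8a2* in the lung at E15.5, and *Col25a1* and *Col19a1* in the diaphragm.

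In the lung at E12.5 the genes called were 2 of the 3 type IX chains. *Col9a1* was at 10.2, 9.75, 10.02 and 9.49 TPM in wt and at 19.03, 21.7, 22.5 and 25.5 TPM in *Hoxa5*-/- libraries, and the lowest mutant library was above the highest wt library. The change was 1.17 (SE 0.08, edgeR adjusted p = 9.04e-05). *Col9a3* was at 18.004, 12.7, 14.8 and 12.7 TPM in wt and at 27.3, 31.9, 35.4 and 34.1 TPM in mutant libraries, again without overlap (1.15, SE 0.11, edgeR adjusted p = 0.0035). Both calls held when any single library was left out, with edgeR adjusted p of 0.000135 (*Col9a1*) and 0.0051 (*Col9a3*) without mutant replicate 1 and of 0.000459 and 0.0354 without mutant replicate 4. With all 32 libraries of the table in 1 fit, neither was called (edgeR adjusted p = 0.712 and 0.665), with changes of 1.17 and 1.14. A block on replicate numbers, which were not taken to pair the libraries, also ended the call of *Col9a3*.

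The remaining chain, *Col9a2*, was at 46.2, 35.2, 46.2 and 37.9 TPM in wt and at 49.9, 58.9, 62.2 and 55.0 TPM in mutant libraries, also without overlap (0.46, SE 0.09, edgeR adjusted p = 0.156). *Col2a1*, the fibril that type IX coats, was at 80.1, 66.1, 70.1 and 76.7 TPM in wt and at 105, 92.8, 99.4 and 79.5 TPM in mutant libraries, which overlap in a single library (0.38, SE 0.11, edgeR adjusted p = 0.386). Of 11 cartilage marker genes, 7 were tested in the lung at E12.5 and 6 reached 1 TPM in each genotype, led by *Sox9*, and the summed level of the 11 was 149 to 152 TPM in wt and 168 to 184 TPM in mutant libraries. *Matn4*, a cartilage matrix protein, was the marker called (0.65, SE 0.09, edgeR adjusted p = 0.0261). The part of these markers in the type IX result was not tested.

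On TMM-scaled counts (CPM), the scale used for all such counts below, the wt and *Hoxa5*-/- libraries did not overlap for 7 of the 38 collagen genes at E12.5, against 5.45% of all genes. Besides the type IX chains these were *Col25a1*, at 5.98, 4.31, 6.75 and 5.77 TPM in wt and 6.79, 9.67, 8.38 and 11.8 TPM in mutant libraries (0.68, edgeR adjusted p = 0.197), and *Col6a4*, *Col17a1* and *Col22a1*, each with a negative change. *Col25a1* was called by DESeq2 (adjusted p = 0.00164) and by edgeR with no minimum level (adjusted p = 0.0318).

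At E15.5 the type IX genes of the lung were not apart. *Col9a1* was at 9.996, 9.05, 8.18 and 8.43 TPM in wt and at 10.1, 9.79, 10.52 and 8.71 TPM in mutant libraries. *Col9a3* was at 32.5, 31.9, 29.3 and 29.5 TPM in wt and at 34.6, 29.3, 34.4 and 19.5 TPM in mutant libraries. Whether the effect of genotype changed with stage was put to an interaction test, with no limit on its size. It was -0.93 for *Col9a1* (SE 0.13, edgeR adjusted p = 0.0208) and -1.13 for *Col9a3* (SE 0.15, edgeR adjusted p = 0.0189), the 2 collagen genes called, against 0.0267% of all genes. Leaving out 1 library ended the call of *Col9a1* in 7 of 16 cases and of *Col9a3* in 6 of 16, with adjusted p up to 0.0810. Both were lost without wt replicate 3 or mutant replicate 3 or 4 of E12.5 and without wt replicate 1 or 2 or mutant replicate 2 of E15.5, and *Col9a1* also without wt replicate 1 of E12.5. With all 32 libraries of the table in 1 fit, neither interaction was called (edgeR adjusted p = 0.999955 for *Col9a1* and for *Col9a3*).

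At E15.5 the lung gene called was *Col8a2*, which pairs with *Col8a1* in type VIII networks. It was at 12.2, 12.03, 10.03 and 12.8 TPM in wt and at 21.7, 20.5, 17.3 and 15.2 TPM in *Hoxa5*-/- libraries, without overlap (0.76, SE 0.11, edgeR adjusted p = 0.0463). The call was lost when any library but mutant replicate 3 was left out, with changes from 0.71 to 0.84. Without mutant replicate 4, the library low in most marker lists, the adjusted p was 0.170. The 6 endothelial markers, led by *Cdh5* and all at 1 TPM or more, summed to 963, 992, 1094 and 897 TPM in wt and to 797, 746, 836 and 497 TPM in mutant libraries, without overlap, and none of the 6 was called. The part of these markers in the *Col8a2* result was not tested, nor was that of the lower sums of replicate 4 in other lists. At E12.5 its levels were 13.9, 9.83, 10.3 and 8.81 TPM in wt and 10.2, 15.6, 16.6 and 14.7 TPM in mutant libraries, which overlap. The genotypes did not overlap for 4 of 40 collagen genes at E15.5, against 4.38% of all genes, the others being *Col13a1*, *Col1a2* and *Col6a6*. *Col6a6* was at 6.35 to 7.74 TPM in wt and 10.1 to 14.1 TPM in mutant libraries (0.86, edgeR adjusted p = 0.3297, DESeq2 adjusted p = 0.00989).

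In the diaphragm the largest change that was called was that of *Col25a1*. It was at 7.56, 10.54, 9.98 and 8.32 TPM in wt and at 30.2, 27.8, 23.998 and 23.5 TPM in *Hoxa5*-/- libraries, so that the lowest mutant library was above every wt library. The change was 1.53 (SE 0.10, edgeR adjusted p = 0.00137), and it was called in all 14 alternatives run, with values from 1.46 to 1.60. Without mutant replicate 3 the adjusted p was 0.0034.

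*Col25a1* did not show this in the other tissues of E15.5. Lung libraries held 22.9, 25.1, 27.3 and 21.8 TPM in wt and 24.2, 21.8, 26.01 and 15.4 TPM in mutant libraries. Trachea libraries held 25.1, 22.5, 19.8 and 31.9 TPM in wt and 26.8, 27.3, 16.7 and 28.7 TPM in mutant libraries. The mutant diaphragm reached the range that the lung and trachea had in either genotype. The genotype effect of the diaphragm differed from that of the lung by 1.59 (SE 0.14, edgeR adjusted p = 0.000201) and from that of the trachea by 1.56 (SE 0.23, edgeR adjusted p = 0.00704), and both interactions were called in all 22 alternatives. The 2 tests share the diaphragm libraries.

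*Col19a1*, a FACIT gene known from developing muscle that lies 9205 bases from *Col9a1* in the opposite orientation, was the other gene called in the diaphragm. It was at 2.02, 2.58, 2.96 and 2.75 TPM in wt and at 6.68, 6.62, 4.60 and 5.37 TPM in mutant libraries, without overlap (1.17, SE 0.15, edgeR adjusted p = 0.0147). The call was lost when wt replicate 1 or 2 or mutant replicate 1 or 2 was left out, with adjusted p of at most 0.0619. Without mutant replicate 3 it held (adjusted p = 0.0154).

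*Col20a1* moved the other way by less than 1.5-fold, at 18.6, 20.9, 18.01 and 18.48 TPM in wt and 13.1, 11.6, 12.3 and 14.4 TPM in mutant libraries (-0.57, SE 0.09, edgeR adjusted p = 0.0375). In the lung at E15.5 it was at 3.22, 3.16, 3.20 and 3.498 TPM in wt and 4.64, 3.35, 3.69 and 2.87 TPM in mutant libraries, and the interaction of tissue and genotype was -0.82 (SE 0.15, edgeR adjusted p = 0.0197). It was lost in 3 of 16 cases in which 1 library was left out, wt replicate 1 or 2 of the lung or wt replicate 2 of the diaphragm. *Col20a1* and *Col25a1* were the 2 collagen genes called for diaphragm against lung, against 0.73% of all genes, and *Col25a1* the 1 called for diaphragm against trachea, against 0.439%. For trachea against lung and for the 2 somite stages 0 collagen genes were called, against 0.00502% and 0.0147% of all genes. The unadjusted edgeR p was under 0.05 for 6 and 9 genes, with no share of all genes at that limit given, and DESeq2 called 1 and 0. The somite count was higher with no minimum level and without wt replicate 3 of E10.5, as given in the closing section.

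For type IV genes of the diaphragm the changes were negative and not called. *Col4a1* was at 740, 688, 651 and 717 TPM in wt and 624, 597, 466 and 590 TPM in mutant libraries (-0.31, SE 0.11, edgeR adjusted p = 0.262). *Col4a6* was at 8.84, 10.8, 8.53 and 6.10 TPM in wt and 5.25, 6.33, 4.69 and 4.72 TPM in mutant libraries, which overlap in TPM, with a fitted change of -0.71 (edgeR adjusted p = 0.100). It was called by DESeq2 (adjusted p = 0.00221), with all 32 libraries in 1 edgeR fit (adjusted p = 0.000352) and by edgeR without wt replicate 4 (adjusted p = 0.0323). *Col4a5* had a change of -0.32 (SE 0.09, edgeR adjusted p = 0.163). Endothelial markers, 6 genes led by *Cdh5*, summed to 311, 279, 345 and 295 TPM in wt and to 275, 236, 199 and 248 TPM in mutant libraries, without overlap, with a median change of -0.32 and 0 of 6 called. The part of these markers in the type IV levels was not tested. *Col4a5* and *Col4a6* are X-linked, and *Xist* was above 10 TPM in 1 of 4 wt and 2 of 4 mutant diaphragm libraries.

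*Col6a4* spread widely among wt diaphragms, at 4.76, 10.8, 0.973 and 0.838 TPM, and was at 0.439, 0.495, 0.341 and 0.592 TPM in mutants (-3.20, SE 0.80, edgeR adjusted p = 0.135). DESeq2 called *Col6a4* (adjusted p = 0.0053), and so did edgeR with all 32 libraries in 1 fit (adjusted p = 0.00123), but no fit that left out 1 library. The genotypes did not overlap for 9 of 41 collagen genes in the diaphragm, against 8.03% of all genes. The other members of this count were *Col18a1*, *Col23a1*, *Col4a1*, *Col4a5*, *Col20a1*, *Col19a1*, *Col25a1* and *Col4a6*.

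Some other markers moved with genotype in the diaphragm. The 6 neural crest, glia and neuron markers summed to 49.9, 76.6, 38.3 and 51.8 TPM in wt and to 16.3, 17.1, 18.7 and 17.8 TPM in mutant libraries. All 6 reached 1 TPM in wt and 4 did in the mutants, and none was at 0 in every library. Of the 6, 4 were called lower, *Sox10*, *Stmn2* and *Tubb3* among them, *Sox10* by -1.77 (SE 0.20) and *Stmn2* by -3.20 (SE 0.27). The smooth muscle genes *Cnn1* (-3.30, SE 0.43) and *Myh11* (-4.34, SE 0.46) were also lower, and 2 of the 4 markers of that list were called. The sums of the 4 overlapped, at 1090 to 1648 TPM in wt and 891 to 1252 TPM in mutant libraries. The 6 epithelial markers summed to 38.9 to 436 TPM in wt and 22.99 to 108 TPM in mutant libraries, which overlap, with 0 of 6 called. The part of these markers in the collagen results of the diaphragm was not tested.

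The cartilage collagens of the diaphragm rested on a single library. *Col2a1* was at 4.71, 4.74, 8.04 and 5.09 TPM in wt and at 7.79, 4.60, 242 and 6.72 TPM in mutant libraries, with a fitted change of 3.54 (SE 1.32, edgeR adjusted p = 0.301). Without mutant replicate 3 the edgeR adjusted p was 0.859, and the remaining mutant libraries, at 4.60 to 7.79 TPM, overlapped those of wt. *Col9a1* had the same form, at 1.76 to 2.53 TPM in wt and 2.59, 1.93, 67.3 and 1.75 TPM in mutant libraries.

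**Figure D5:**
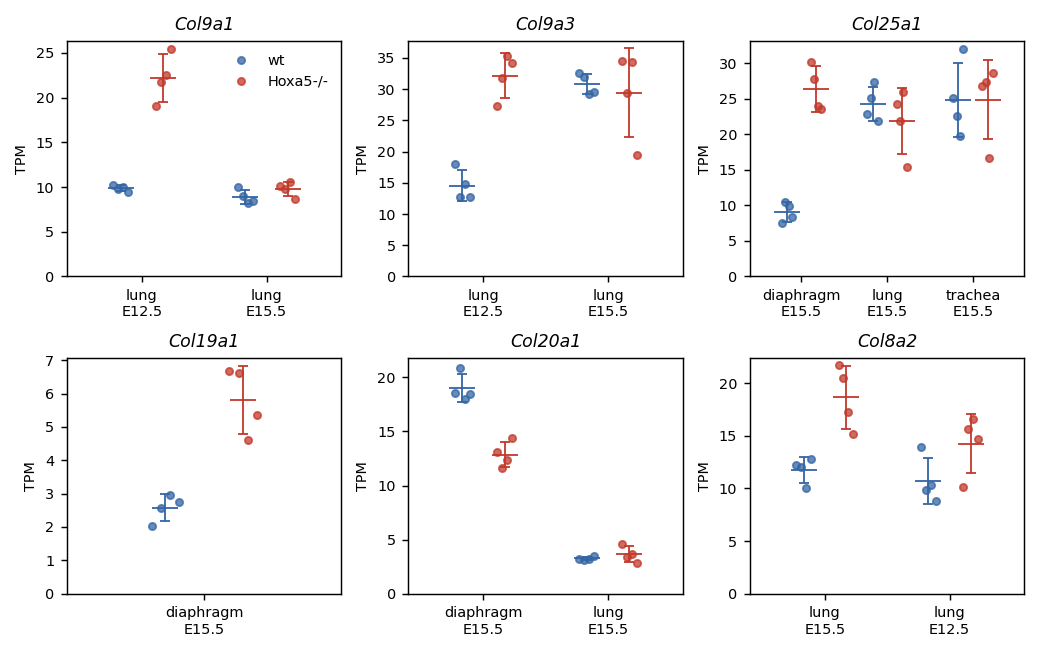
TPM per library (points) with the mean ± SD of each group (horizontal axis, wt and *Hoxa5*-/- by context) for collagen genes called between genotypes or in an interaction. In the diaphragm the 4 *Hoxa5*-/- libraries of *Col25a1* sit between 23.5 and 30.2 TPM, all above the wt libraries, while the genotypes overlap in the lung and trachea of E15.5.

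In somites at E10.5, the 31 collagen genes with a positive change were not called. Without mutant replicate 3 a positive change was found for 34 of 36, and without mutant replicate 1 for 26. The median over the 51 tested genes of the pathway list was 0.15. *Col4a1* was at 105, 123, 183 and 149 TPM in wt and at 212, 199 and 173 TPM in mutant libraries, which overlap in TPM (0.43, SE 0.14, edgeR adjusted p = 0.391). *Col4a2* (0.40, SE 0.13) and *Col1a2* (0.43, SE 0.17) had the same adjusted p. After TMM scaling the genotypes did not overlap in 2 of 36 genes, *Col4a1* and *Col23a1*, against 8.16% of all genes. Endothelial markers, led by *Cldn5*, summed to 184 to 237 TPM in wt and 245 to 266 TPM in mutant libraries, and the 6 epithelial markers, led by *Krt18*, to 60.8 to 101 TPM and 103 to 113 TPM. Both lists were without overlap and had 0 of 6 genes called, and their part in the collagen changes was not tested.

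In the trachea the genotypes were apart in 1 of 40 collagen genes, against 3.88% of all genes. This was *Col15a1*, a multiplexin, at 89.6, 92.9, 84.6 and 88.1 TPM in wt and 120, 100, 121 and 118 TPM in mutant libraries (0.36, SE 0.07, edgeR adjusted p = 0.513). *Col2a1* was at 836, 959, 824 and 633 TPM in wt and at 904, 468, 2504 and 594 TPM in mutant libraries, the highest being replicate 3. Its change was 0.45 (SE 0.49) with that library and -0.32 (SE 0.23, edgeR adjusted p = 0.568) without it. No collagen gene was apart in somites at E12.5 (0 of 40, against 2.66% of all genes) or in iBAT (0 of 22, against 0.309%).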

How the data were processed

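Counts and TPM of 57 libraries were read from a table of trachea, lung and diaphragm and from a table of somites and iBAT, each library matched to tissue, stage, genotype and replicate number by its label. According to the deposited files and the study's methods, the authors used Trim Galore 0.6.5 for trimming and STAR 2.7.9a for mapping (GRCm39), obtained raw counts per gene with featureCounts 2.0.3 on an annotation curated for *Hox* genes, and made the deposited TPM from those counts and exon lengths. Recomputed TPM matched the deposited TPM to within 2.9e-11.

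Counts were tested in edgeR 4.0.16 (quasi-likelihood F test, TMM, R 4.3.3) with Benjamini-Hochberg adjustment over all genes tested, separately for each comparison and never across the tables. DESeq2 1.42.0, other scalings, other minimum levels, a fit of all libraries, replicate blocks and each library left out were the alternatives. The testing steps were tested on simulated data. Named were, between wt groups, the 5 called genes with the largest rise and fall at 10 TPM or more in either group, and between genotypes those called and those 1.5-fold apart without overlap. In the pathway list the rule took 3 and 3, of which only some are printed. Others were named after their values were seen. The members, gene lists and tests were chosen with earlier results of these data known. Precision is limited by the counts behind each gene and by groups of 3 to 5 libraries. No column was left unassigned. The result of 1 marker gene is not reported here.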

Additional observations from a re-analysis of the deposited data

Results flagged for a closer look

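Of 63 sets of values, each a gene or the collagen percent in a group of 4 or 5 libraries, 8 held a library far from the others by Dixon's ratio. Chance alone marks about 1 in 20 of separate sets that were not picked by their values. The genes looked at were mostly those named between genotypes and the cartilage collagens of the diaphragm and trachea. They were chosen with results of these data known, so that rate does not apply to them. The 8 were also not separate, since all came from replicate 3 of the wt or of the *Hoxa5*-/- diaphragm. In the *Hoxa5*-/- diaphragm this was replicate 3 for *Col2a1* (242.4 TPM), *Col9a1* (67.32 TPM), *Col9a2* (138.8 TPM), *Col9a3* (91.03 TPM) and *Col11a2* (64.53 TPM), the library with the high cartilage markers. In the wt diaphragm, replicate 3 was high for *Col2a1* (8.036 TPM) and *Col9a2* (54.31 TPM) and low for the collagen percent of all TPM (1.244%).

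Genotype effects that differed between tissues or stages by an edgeR interaction test were those of *Col25a1* in the diaphragm against the lung (1.594) and the trachea (1.558), of *Col20a1* in the diaphragm against the lung (-0.8199), and of *Col9a1* (-0.9282) and *Col9a3* (-1.13) in the lung at E15.5 against E12.5. All are log2 values, and the cause of each was not tested.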

How the results depend on the processing

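Numbers of collagen genes called between genotypes moved with the setting. In the lung at E12.5 there were 2, then 3 with DESeq2, 3 with no minimum level, 1 with replicate blocks and 0 with 1 fit for all libraries; in the lung at E15.5 there was 1, then 2 with DESeq2, 2 with replicate blocks and 0 at the lowest and 1 at the highest when 1 library was left out; in the diaphragm there were 2, then 5 with DESeq2, 6 with 1 fit for all libraries and 1 to 3 when 1 library was left out; and in the trachea there were 0, then 1 with 1 fit for all libraries. In the interactions there were 2 genes for the lung stages, then 0 with 1 fit for all libraries and 0 to 2 without 1 library; 0 for the somite stages, then 4 with no minimum level and 0 to 7 without 1 library, the 7 being without wt replicate 3 of E10.5; 0 for trachea against lung, then 1 with DESeq2; 2 for diaphragm against lung, then 4 with DESeq2 and 1 to 4 without 1 library; and 1 for diaphragm against trachea, then 3 with DESeq2, 2 with DESeq2 size factors, 2 with a minimum of 10 counts, 2 with 1 fit for all libraries and 1 to 2 without 1 library. Between wt somite stages 0 genes fell, then 1 in the *Hoxa5*-/- libraries and 0 to 1 without 1 library, and the 16 genes higher in the diaphragm than in the trachea became 9 with a 2-fold minimum. *Col2a1* (0.967) and *Col9a3* (0.0085) changed direction for diaphragm against lung in the *Hoxa5*-/- libraries. The cause of these changes was not tested, except that leaving out a library lowers the number of libraries.

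Replicate numbers were not taken to pair the libraries, since the labels tie no number to a litter and no context had a correlation over 0.1 in every same-numbered pair. By its lowest pair the nearest was iBAT, with correlations of 0.0727 to 0.189 over 5 pairs, 4 of which matched best with their own number. In iBAT a block on the numbers in the library names called 0 collagen genes and 2 genes in all. Diaphragm replicates 1, 2 and 3 had higher values, 0.203, 0.294 and 0.445, all best matches, and replicate 4 had -0.0449. Replicate 3 also matched best in the trachea (0.397) and the lung at E15.5 (0.470), where replicates 1, 2 and 4 did not. These are hints from the data and not the design. With the replicate block the calls over all genes were 104 in place of 22 in the lung at E15.5, 358 in place of 107 in the diaphragm and 4 in place of 14 in the lung at E12.5. Under the block *Col9a3* in the lung at E12.5 had an edgeR adjusted p of 0.0556, and *Col4a6* in the diaphragm was called (0.0176). Counts over all genes moved by more than 1.5 times with DESeq2 as well, which called 406 in the diaphragm and 81 in the lung at E12.5. Low genes such as *Col28a1* rest on few counts, and a group of 3 to 5 libraries limits what could be called.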
